A study of Rattus norvegicus with 9 samples.

Results

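Respiratory complex I is the first enzyme of the mitochondrial electron transport chain, and 35 of its nuclear-encoded subunits were followed here as one group of genes. The members were chosen by gene symbol from the known composition of the complex. The rule uses no measured value, but the choice was made with earlier results of these data known. They are 35 of the 36856 genes in the tables, and all 35 passed the filter on low counts, which left 14706 genes to test. The complex oxidises NADH, passes the electrons along iron-sulfur clusters to ubiquinone, and pumps protons across the inner mitochondrial membrane. Its matrix arm is built from the N module at the NADH-oxidising tip and the Q module that reduces ubiquinone, and its membrane arm has a proximal part and 2 distal parts named after the mitochondrially encoded subunits ND4 and ND5. Heart muscle depends on this chain for most of its ATP. The mitochondrially encoded subunits were not analysed here.

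The cells were H9c2(2-1), a line from embryonic BD1X rat heart that the labels call myoblasts, all wild type. RNA of the whole culture was sequenced from 3 groups of 3 libraries. ESW libraries came from cells given energized structured water at a dilution of 0.01 for 72 h, and CW libraries from cells given control water in the same way, with the medium renewed every 24 h in both. Control libraries came from cells kept in normal growth medium. All 3 groups were grown with 10% serum under 5% CO2. The series title names bioenergetic function and oxidative stress as its subject, and complex I bears on the first of these. ESW was set against both other groups, and CW against Control.

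The libraries held between 26748673 and 48574618 estimated reads. The 35 members together took between 54013 and 104303 reads per library, and a single member had 376 reads at the lowest and 5973 at the highest. Of 10 muscle markers, 6 reached 1 TPM (a level corrected for transcript length and scaled to the same total in every library) in at least 1 library. Among them were Myod1 at 7.65 to 11.4 TPM and Tnnt2 at 58.9 to 74.7 TPM, whereas the muscle markers Myf5, Actc1, Myh3 and Nkx2-5 stayed under 1 TPM. All 6 fibroblast and smooth muscle markers were present, with Col1a1 at 8854 to 11830 TPM. None of 4 endothelial and none of 4 blood markers reached 1 TPM, and of 4 epithelial markers only Krt8 did, at 44.5 to 57.6 TPM. The findings come from 1 cell line. Whether the 3 libraries of each group were grown as separate cultures is not stated in the labels, so a p-value reflects the spread among these libraries alone, and that spread may be technical.

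Most complex I subunits stayed close to their Control level after ESW. With an adjusted p under 0.05 (edgeR's quasi-likelihood test with Benjamini-Hochberg adjustment over all tested genes), 3 members fell in ESW against Control: Ndufa12, Ndufa5 and Ndufb8. In the same comparison Ndufs7 rose, and the other 31 members were not called. The 4 calls amount to 11.4% of the members, where 8.04% of all tested genes were called, 4.76% as higher and 3.28% as lower. Against CW, ESW had 1 lower member, Ndufa12, and no higher one, where 8.14% of all tested genes were called, 4.15% as higher and 3.99% as lower. CW against Control gave 0 called members by edgeR's quasi-likelihood test, where 0.177% of all tested genes were called, 0.0272% as higher and 0.15% as lower. At an unadjusted p under 0.05 the same test gave 11 members in ESW against Control, 7 in ESW against CW and 5 in CW against Control, beside 22.8%, 23.9% and 9.87% of all tested genes. For CW against Control, DESeq2 gave 0 called members and 3 at an unadjusted p under 0.05. Of the 14706 tested genes, DESeq2 called 71 there and gave 1168 at an unadjusted p under 0.05. Levels in bulk RNA are shares of a library, so fewer cells of a type and less RNA per cell cannot be told apart.

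The 4 called members sit in 3 places of the complex: Ndufa12 in the N module, Ndufa5 and Ndufs7 in the Q module and Ndufb8 in the ND5 part of the distal membrane arm. Their promoter windows are shown because these are the genes on which the comparisons turn. Each window holds the 250 bases before and the 50 bases after the gene's start, 5′ to 3′ on the gene's own strand, from RefSeq in build GRCr8. The windows are chr7:30658066-30658365 on the plus strand for Ndufa12, chr4:53971186-53971485 on the minus strand for Ndufa5, chr7:10110449-10110748 on the minus strand for Ndufs7 and chr1:253362887-253363186 on the minus strand for Ndufb8. Capitals mark matches, on either strand, to letters bound by NRF1 (GCGCANGCG), YY1 (AANATGGCG), ETS factors (CCGGAAGT), CCAAT-binding factors (CCAAT) or SP1 (GGGCGG).
Ndufa12: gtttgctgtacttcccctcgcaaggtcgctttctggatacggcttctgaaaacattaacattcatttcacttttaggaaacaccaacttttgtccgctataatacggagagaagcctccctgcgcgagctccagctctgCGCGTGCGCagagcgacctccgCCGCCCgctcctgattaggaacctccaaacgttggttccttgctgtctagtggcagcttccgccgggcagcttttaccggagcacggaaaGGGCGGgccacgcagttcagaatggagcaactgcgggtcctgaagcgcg
Ndufa5: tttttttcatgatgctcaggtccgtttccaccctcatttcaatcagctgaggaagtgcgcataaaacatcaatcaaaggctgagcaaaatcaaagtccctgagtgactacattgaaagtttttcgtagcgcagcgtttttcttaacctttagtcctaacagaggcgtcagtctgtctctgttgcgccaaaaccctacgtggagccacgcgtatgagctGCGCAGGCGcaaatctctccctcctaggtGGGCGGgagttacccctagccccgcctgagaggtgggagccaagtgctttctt
Ndufs7: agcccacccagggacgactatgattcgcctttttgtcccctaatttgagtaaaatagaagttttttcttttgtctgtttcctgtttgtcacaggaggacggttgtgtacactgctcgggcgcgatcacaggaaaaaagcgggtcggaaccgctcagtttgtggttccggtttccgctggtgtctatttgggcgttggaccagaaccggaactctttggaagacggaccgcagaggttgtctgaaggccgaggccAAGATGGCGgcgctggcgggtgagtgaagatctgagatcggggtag
Ndufb8: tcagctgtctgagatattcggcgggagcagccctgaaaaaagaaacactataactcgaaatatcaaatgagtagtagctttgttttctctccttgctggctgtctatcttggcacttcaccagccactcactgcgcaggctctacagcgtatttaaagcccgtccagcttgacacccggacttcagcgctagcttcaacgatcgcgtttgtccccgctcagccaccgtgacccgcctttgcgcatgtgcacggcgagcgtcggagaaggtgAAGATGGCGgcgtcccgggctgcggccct

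The Ndufa12 window held 1 NRF1 match and 2 SP1 matches, and the Ndufa5 window 1 match of each of these. Ndufs7, the member that rose, and Ndufb8, which fell, each held 1 YY1 match and no other. These 2 called members moved in opposite directions in ESW against Control. Over all members, 11 of 33 windows held a YY1 match, and its bearing on direction was not tested. A match is a description of the letters and not evidence that a factor binds there.

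Ndufa12, an accessory subunit at the junction of the N and Q modules, had the lowest p of all members. In CPM, the read count scaled to library size with TMM factors, it measured 88.3, 86.4 and 82.2 CPM in the ESW libraries, 93.7, 93.8 and 94.7 in the CW libraries and 95.8, 100.2 and 99.4 in the Control libraries. In CPM the 3 groups did not overlap, with every ESW library below every CW library and every CW library below every Control library. In TPM the ESW libraries again lay below all others, while CW and Control overlapped. ESW was lower than Control (log2 fold change -0.20, SE 0.04, adjusted p = 0.00499). It was also lower than CW (log2 fold change -0.14, SE 0.04, adjusted p = 0.0471). The difference of CW from Control did not pass the test (log2 fold change -0.07, SE 0.04, adjusted p = 0.623). The fall against Control was called under all 18 alternative settings, with log2 fold changes between -0.22 and -0.17 and adjusted p between 0.000283 and 0.0422. The fall against CW was called under 8 of 18, with adjusted p from 0.0269 to 0.202. It lost its call without ESW 2, ESW 3, CW 1, CW 2, CW 3, Control 2 or Control 3, with log2 fold changes between -0.14 and -0.11 in those fits.

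Ndufa5, an accessory subunit of the Q module, measured 50.4, 52.1 and 47.4 CPM in the ESW libraries, 53.2, 53.3 and 56.9 in the CW libraries and 53.2, 57.4 and 58.7 in the Control libraries. In CPM all ESW libraries lay below all libraries of the other two groups, while CW and Control overlapped. In TPM the ESW libraries lay below CW and overlapped Control. The fall against Control passed the test (log2 fold change -0.18, SE 0.05, adjusted p = 0.0392), and the difference from CW did not (log2 fold change -0.13, SE 0.05, adjusted p = 0.144). The call against Control was lost in 9 of 18 alternatives, where adjusted p ranged from 0.0113 to 0.265 over all 18. The libraries without which it was lost were ESW 1 (adjusted p = 0.0693), ESW 3 (adjusted p = 0.19), CW 2 (adjusted p = 0.0529), Control 2 (adjusted p = 0.133) and Control 3 (adjusted p = 0.171).

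Ndufs7, the core subunit that carries the last iron-sulfur cluster before ubiquinone, measured 50.3, 43.1 and 41.9 CPM in the ESW libraries, 41.8, 43.95 and 48.4 in the CW libraries and 36.3, 37.99 and 40.7 in the Control libraries. Every Control library was below every ESW and every CW library, and the ESW and CW libraries overlapped. ESW was higher than Control (log2 fold change 0.23, SE 0.07, adjusted p = 0.0399). CW stood above Control by a like amount without passing the test (log2 fold change 0.22, SE 0.07, adjusted p = 0.254), and ESW was level with CW (log2 fold change 0.01, SE 0.07, adjusted p = 0.945). In TPM the ratio of ESW to Control was 1.08, beside 1.18 in the fit on counts. The mean effective length of the Ndufs7 transcripts, weighted by TPM, was 1.07 times as large in ESW as in Control. This mean depends on the transcript shares as well as on Salmon's effective lengths. With average transcript lengths in the fit the log2 fold change was 0.11 and the call was lost (adjusted p = 0.327, in a range of 0.00173 to 0.327 over the 18 alternatives). The call was also lost without ESW 1 (log2 fold change 0.15), ESW 2, ESW 3, CW 2, Control 1 or Control 2.

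Ndufb8, a single-span subunit of the distal membrane arm, measured 96.9, 87.1 and 83.3 CPM in the ESW libraries, 97.96, 104 and 98.3 in the CW libraries and 97.2, 99.9 and 111 in the Control libraries. Every ESW library was below every library of the other two groups, although ESW 1 lay within 1 CPM of the lowest Control library. In TPM the groups overlapped, with 345 TPM in ESW 1 above 336 TPM in Control 1. ESW was lower than Control (log2 fold change -0.21, SE 0.06, adjusted p = 0.0263), and the difference from CW missed the threshold (log2 fold change -0.17, SE 0.06, adjusted p = 0.0714). That difference from CW was called in 7 of 18 alternatives, DESeq2 among them, with adjusted p from 0.012 to 0.287 over the 18. The call against Control held in 11 of 18 alternatives, with adjusted p from 0.000452 to 0.24. It was lost without ESW 2 (adjusted p = 0.0951), ESW 3 (adjusted p = 0.158), Control 2 (adjusted p = 0.0534) or Control 3 (adjusted p = 0.157). In the fit with transcript length offsets, adjusted p was 0.168 for Ndufb8, 0.261 for Ndufa5 and 0.0102 for Ndufa12. That fit called 2 members in ESW against Control, Ndufa12 and the proximal-arm subunit Ndufc2.

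**Figure D1:**
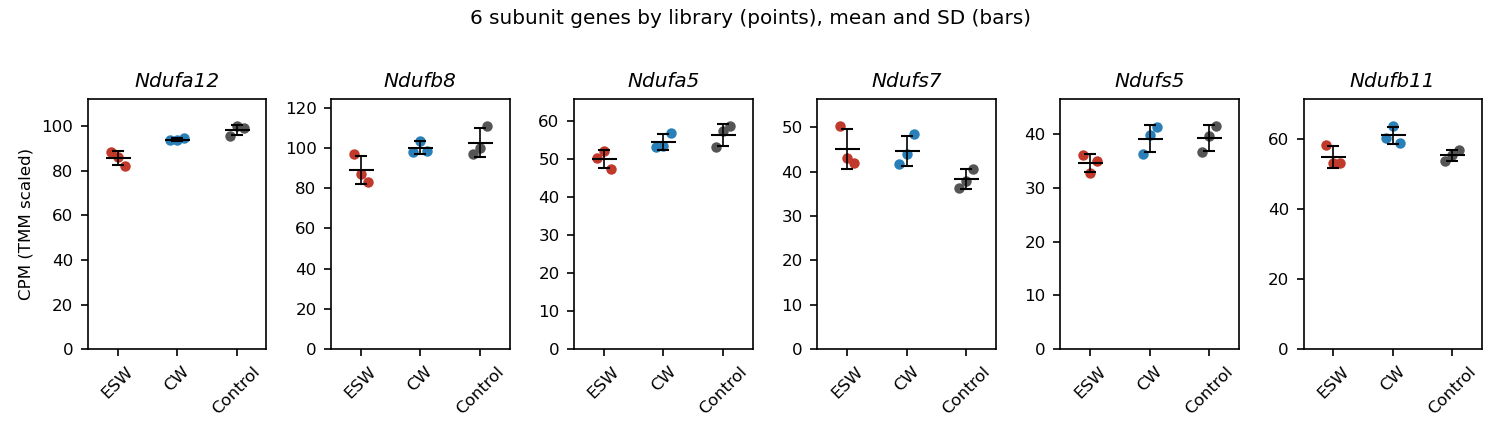
CPM in every library for the 4 called members and for Ndufs5 and Ndufb11, with ESW left of CW and Control; each point is a library and the bar marks the group mean with its SD (n = 3). The 3 groups of Ndufa12 do not overlap, and all ESW and CW libraries of Ndufs7 lie above its Control libraries.

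The number of called members turned on single libraries. For ESW against Control it was 4 in the full set, 1 without ESW 3 or Control 2, 2 without ESW 1, CW 2 or Control 3, and 5 without Control 1. For ESW against CW it was 1 in the full set, 0 without ESW 2, ESW 3, CW 2, CW 3 or Control 2, 3 without ESW 1 and 4 without Control 1. Ndufa12 in ESW against Control was the single call present in every one of these fits.

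Counting members whose libraries did not overlap between groups in CPM, whatever their p, gave 7 lower and 3 higher in ESW against Control, where 25.6% of all tested genes did not overlap, 12.4% lower and 13.3% higher. The 7 were Ndufa12, Ndufa5, Ndufa8, Ndufs5, Ndufc2, Ndufb3 and Ndufb8, and the 3 were Ndufv3, Ndufs7 and Ndufb10. Between ESW and CW, 5 members were lower and 4 higher in ESW without overlap, where 28.3% of all tested genes did not overlap, 13.4% lower and 14.9% higher. In CW against Control, 5 were lower and 3 higher, where the share of all tested genes was 14.7%, with 7.56% lower and 7.13% higher. The counts depended on the scale. In TPM, 6 members did not overlap in ESW against Control, where 19.8% of all tested genes did not. These were Ndufa12, Ndufa8, Ndufs5 and Ndufc2, which were lower, and Ndufs7 and Ndufb10, which were higher, while Ndufa5, Ndufb3, Ndufb8 and Ndufv3 overlapped. The TPM counts for ESW against CW and for CW against Control were 6 and 9 members, beside 23.8% and 11.4% of all tested genes.

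The fitted differences were small throughout. In ESW against Control the members' log2 fold changes ran from -0.21 to 0.23, with a median of -0.03 beside -0.01 for all tested genes, and 22 of the 35 were negative, where 52.6% of all tested genes were. The standard error of a member's log2 fold change was 0.04 to 0.09, so for 33 of the 35 members the 95% interval lay within a 1.25-fold change in either direction. The exceptions were Ndufs7 and Ndufb8. Between ESW and CW the range was -0.18 to 0.13 and the median -0.03, beside -0.0018 for all tested genes. There 20 members were negative, where 50.5% of all tested genes were, and all 35 intervals lay within 1.25-fold. In CW against Control the range was -0.15 to 0.22, 19 members were negative beside 50.2% of all tested genes, and 34 intervals lay within that limit, with Ndufs7 outside it. The comparisons of ESW and of CW with Control share the Control libraries.

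**Figure D2:**
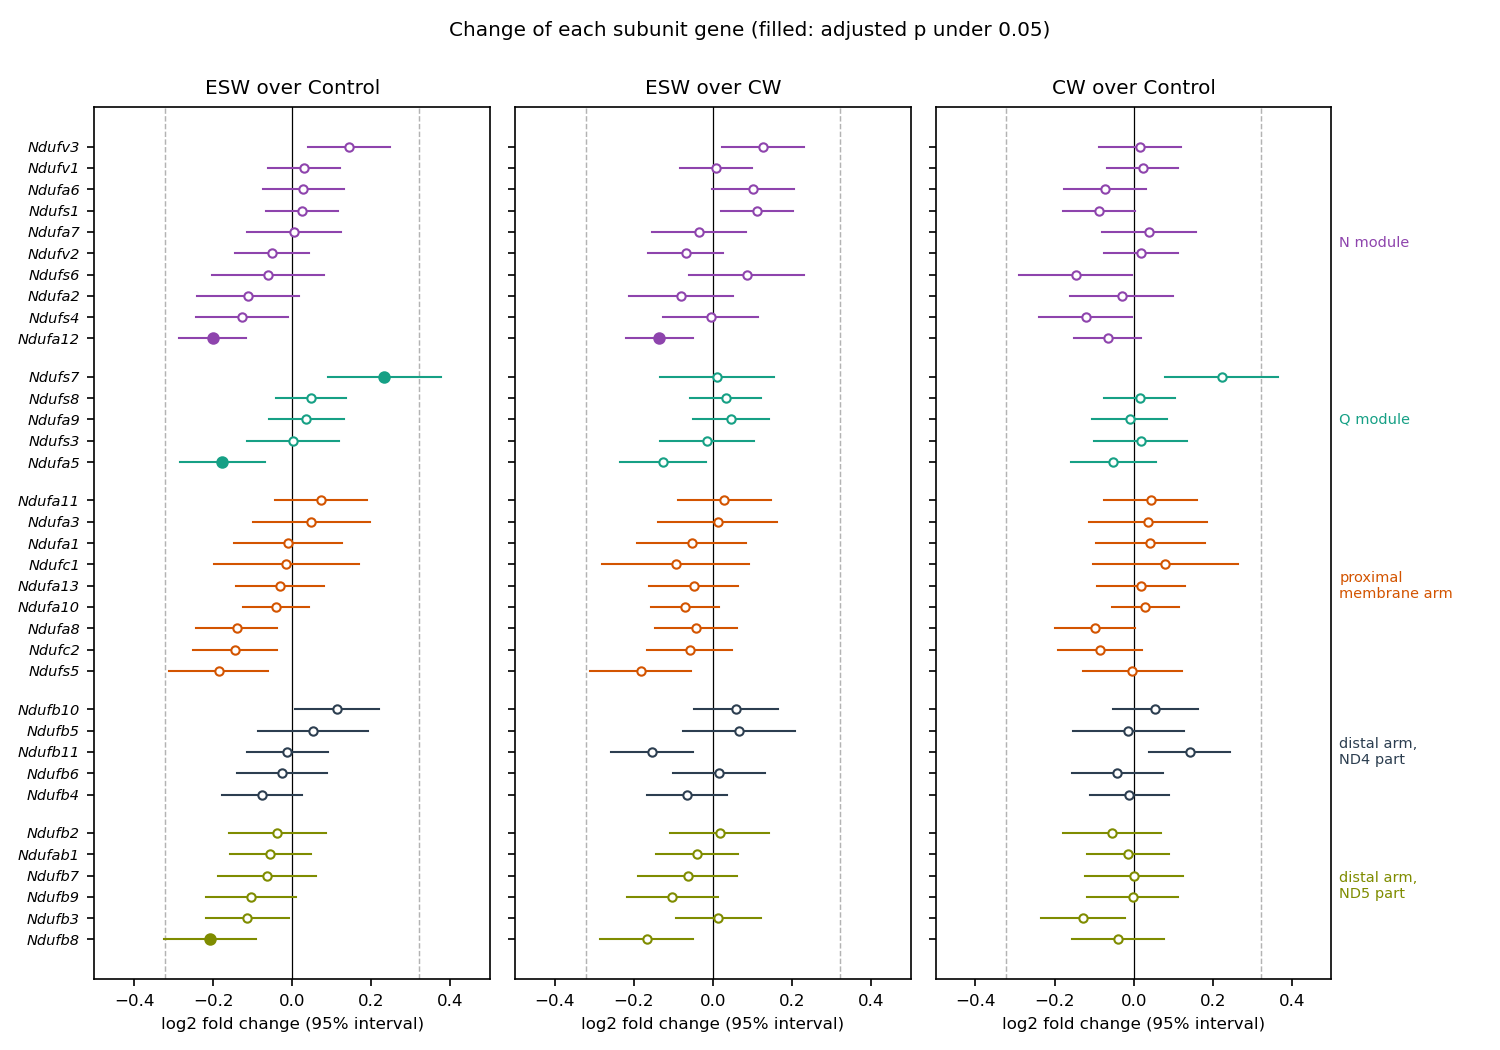
Log2 fold change with its 95% interval for each of the 35 members in the 3 comparisons, grouped by module; filled points passed the adjusted p of 0.05. Most intervals include 0, and nearly all lie within a 1.25-fold change.

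The N module holds the NADH-binding flavoprotein Ndufv1, the iron-sulfur proteins Ndufv2 and Ndufs1, and accessory subunits around them. Of its 10 members, 1 fell in ESW against Control (Ndufa12), none rose and 9 were not called, with a median log2 fold change of -0.02. Ndufv3, a small accessory flavoprotein subunit, measured 53.7, 50.8 and 52.1 CPM in the ESW libraries, 45.7, 46.7 and 50.8 in the CW libraries and 48.5, 47.1 and 46.2 in the Control libraries. All ESW libraries were above all CW and Control libraries in CPM, and overlapped both in TPM. Neither difference passed the test, against Control (log2 fold change 0.14, SE 0.05, adjusted p = 0.0789) or against CW (log2 fold change 0.13, SE 0.05, adjusted p = 0.118). Ndufs1, the largest of the nuclear-encoded subunits, measured 93.3, 90.9 and 94.9 CPM in the ESW libraries, 82.6, 85.3 and 90.1 in the CW libraries and 94.8, 90.8 and 88.7 in the Control libraries. Its ESW libraries were all above the CW libraries and overlapped Control (log2 fold change 0.11, SE 0.04, adjusted p = 0.117, ESW against CW). Ndufs4, an accessory subunit whose loss causes Leigh syndrome in people, measured 44.4, 50.8 and 43.2 CPM in the ESW libraries, 46.2, 45.8 and 47.2 in the CW libraries and 48.98, 49.8 and 52.6 in the Control libraries. ESW 2 lay among the Control libraries, and ESW 1 and ESW 3 below them (log2 fold change -0.13, SE 0.06, adjusted p = 0.178, ESW against Control). All CW libraries of Ndufs4 lay under all its Control libraries in CPM and in TPM (adjusted p = 0.499, CW against Control). Ndufs6, a zinc-binding accessory subunit, measured 36.01, 29.99 and 30.2 CPM in the ESW libraries, 31.2, 30.1 and 29.5 in the CW libraries and 31.7, 35.9 and 32.8 in the Control libraries. All CW libraries lay under all Control libraries in CPM, though not in TPM, while ESW spanned both (log2 fold change -0.15, SE 0.07, adjusted p = 0.499, CW against Control). Ndufv1 was the steadiest of all 35 members, with 120.0, 119 and 125 TPM in the ESW libraries, 120.3, 122 and 118 in the CW libraries and 118, 122 and 119.6 in the Control libraries. The groups overlapped, and its coefficient of variation over the 9 libraries was 1.84%. Ndufv2 measured 269, 270.1 and 276 TPM in the ESW libraries, 284, 278 and 294 in the CW libraries and 274, 268 and 288 in the Control libraries. Every ESW value of Ndufv2 was below every CW value in TPM, and Control overlapped both, whereas in CPM all 3 groups overlapped. The remaining members Ndufa2, Ndufa6 and Ndufa7 had adjusted p of 0.294, 0.791 and 0.978 in ESW against Control. For Ndufa6, all CW libraries lay under all ESW libraries in CPM, though not in TPM (adjusted p = 0.224, ESW against CW). They also lay under all Control libraries in CPM and in TPM (adjusted p = 0.671, CW against Control).

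The Q module joins the tip to ubiquinone. Of its 5 members, 1 rose (Ndufs7), 1 fell (Ndufa5) and 3 were not called in ESW against Control, and the median log2 fold change was 0.04. Ndufs8, which carries iron-sulfur clusters next to that of Ndufs7, measured 71.3, 70.1 and 70.2 CPM in the ESW libraries, 66.4, 69.2 and 71.2 in the CW libraries and 66.1, 70.2 and 68.4 in the Control libraries. These groups overlapped, so the rise of Ndufs7 had no like change in Ndufs8 that passed the test (adjusted p = 0.547, ESW against Control). The core subunit Ndufs3 averaged 114 ± 4.10 TPM in ESW, 115 ± 4.52 in CW and 114 ± 5.83 in Control. The accessory subunit Ndufa9 averaged 129 ± 2.82 TPM in ESW, 124 ± 4.43 in CW and 125 ± 3.88 in Control (SD, n = 3 each). Their groups overlapped.

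The proximal membrane arm carries 9 of the members. In the fit reported, 0 were called in any of the 3 comparisons by edgeR's quasi-likelihood test, and 0 by DESeq2. Of all tested genes, edgeR called 8.04% in ESW against Control, 8.14% in ESW against CW and 0.177% in CW against Control. At an unadjusted p under 0.05, edgeR gave 3 in ESW against Control, 1 in ESW against CW and 0 in CW against Control. The shares of all tested genes were 22.8%, 23.9% and 9.87%. Ndufs5, a subunit on the intermembrane-space face, measured 36.2, 32.8 and 34.96 CPM in the ESW libraries, 36.4, 39.9 and 41.3 in the CW libraries and 36.8, 39.7 and 41.6 in the Control libraries. Its ESW libraries were all below its CW and Control libraries, ESW 1 only just. The differences missed the threshold against Control (log2 fold change -0.19, SE 0.06, adjusted p = 0.0636) and against CW (log2 fold change -0.18, SE 0.06, adjusted p = 0.0714). Against Control, Ndufs5 was called in 3 of 18 alternatives, with adjusted p from 0.0196 to 0.256 over the 18. Against CW it was called in 5 of 18, with adjusted p from 0.0368 to 0.268. Ndufc2, a membrane subunit, measured 55.7, 53.1 and 53.2 CPM in the ESW libraries, 51.96, 56.8 and 59.6 in the CW libraries and 57.95, 58.8 and 62.02 in the Control libraries. In CPM, ESW lay below Control without overlap, and CW overlapped both (log2 fold change -0.14, SE 0.05, adjusted p = 0.0889, ESW against Control). In TPM, ESW and CW both lay below Control without overlap, and they overlapped each other. The log2 ratio of mean TPM was -0.21 for ESW over Control, -0.16 for CW over Control and -0.05 for ESW over CW. On length-corrected values Ndufc2 was called in ESW against Control, with a log2 fold change of -0.22 and adjusted p = 0.015 with transcript length offsets, and -0.21 and adjusted p = 0.0382 with limma on log2 TPM. Over the 18 alternatives its adjusted p ran from 0.015 to 0.301, and it was called in these 2. Its TPM-weighted mean effective length was 1.03 times as large in ESW as in Control. Ndufa8, another subunit of the intermembrane-space face, averaged 88.5 ± 4.32 CPM in ESW, 91 ± 4.88 in CW and 97.5 ± 4.21 in Control (SD, n = 3 each). Its ESW libraries lay below its Control libraries without overlap, and in TPM its CW libraries did so too. Ndufa8 was called in ESW against Control in 2 of 18 alternatives, with adjusted p from 0.0295 to 0.297 over the 18. Ndufa10, a subunit related to nucleoside kinases, measured 95.4, 96.5 and 91.2 CPM in the ESW libraries, 98.6, 102 and 96.5 in the CW libraries and 95.3, 98.6 and 97.4 in the Control libraries. Ndufc1, a small membrane subunit, measured 13.6, 13.8 and 12.2 CPM in the ESW libraries, 13.9, 12.99 and 15.5 in the CW libraries and 12.5, 14.9 and 12.7 in the Control libraries. The groups overlapped in both. Ndufa1, Ndufa3, Ndufa11 and Ndufa13 had adjusted p of 0.945, 0.741, 0.473 and 0.789 in ESW against Control.

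In the ND4 part of the distal arm, 0 of 5 members were called in any comparison by edgeR's quasi-likelihood test in the fit reported or by DESeq2. The shares of all tested genes called by edgeR were 8.04% in ESW against Control, 8.14% in ESW against CW and 0.177% in CW against Control. At an unadjusted p under 0.05, edgeR gave Ndufb10 in ESW against Control, and Ndufb11 in both comparisons with CW. At that limit the shares of all tested genes were 22.8% in ESW against Control, 23.9% in ESW against CW and 9.87% in CW against Control. Ndufb11 had the lowest p of this part over the 3 groups. It measured 58.3, 53.04 and 53.02 CPM in the ESW libraries, 60.2, 63.6 and 58.8 in the CW libraries and 53.7, 55.2 and 56.6 in the Control libraries. CW stood above both other groups without overlap, and ESW overlapped Control. ESW differed from CW with log2 fold change -0.15, SE 0.05, adjusted p = 0.0618, and CW from Control with log2 fold change 0.14, SE 0.05, adjusted p = 0.315. The difference of ESW from CW was called in 4 of 18 alternatives, with adjusted p from 0.0246 to 0.27 over the 18. Ndufb10 averaged 36.5 ± 1.67 CPM in ESW, 35.02 ± 0.219 in CW and 33.7 ± 0.681 in Control (SD, n = 3 each), with ESW above CW and CW above Control and no overlap between them. Ndufb4, Ndufb5 and Ndufb6 overlapped between all groups in CPM. In TPM, Ndufb4 and Ndufb6 were lower in CW than in Control without overlap. For Ndufb10 in TPM, ESW and CW were each above Control without overlap and overlapped each other.

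The 6 members of the ND5 part all had a negative log2 fold change in ESW against Control, between -0.21 and -0.04 with a median of -0.08. Of all tested genes, 52.6% were negative there. Apart from Ndufab1, the transcripts of these members were under 1000 bases. Among all tested genes of that length 69.5% were negative, with a median of -0.08. One of the 6, Ndufb8, passed the test. Set against CW, 4 of the 6 were negative in ESW, with a median of -0.05, where 50.5% of all tested genes were negative. Ndufb9, a member with a level among the highest, measured 115, 107 and 101 CPM in the ESW libraries, 110.0, 111 and 125 in the CW libraries and 111, 114 and 122 in the Control libraries, and its groups overlapped. Ndufb3 averaged 31.5 ± 0.623 CPM in ESW, 31.2 ± 0.794 in CW and 34.1 ± 0.903 in Control, and its Control libraries were above all ESW and all CW libraries in CPM. In TPM the groups of Ndufb3 overlapped, with a log2 ratio of ESW to Control of -0.02. Its TPM-weighted mean effective length was 0.928 times as large in ESW as in Control. The other three members, Ndufb2, Ndufb7 and Ndufab1, overlapped between all groups.

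Summed over members, the transcripts of complex I made up 0.79% to 0.85% of all TPM. The sum was 8079 ± 154 TPM in ESW, 8327 ± 176 in CW and 8379 ± 195 in Control (SD, n = 3 each). Single libraries ran from 7948 to 8249 TPM in ESW, from 8124 to 8445 in CW and from 8154 to 8492 in Control, so that the groups overlapped. The ND5 part summed to 1467 ± 64.0 TPM in ESW, 1552 ± 72.9 in CW and 1547 ± 54.6 in Control. For the Q module the sums were 939 ± 15.4, 963 ± 30.9 and 947 ± 28.2 TPM in ESW, CW and Control.

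Libraries of one group differed in how many members stood high. In ESW 1, 22 of the 35 members were above their own median over the 9 libraries in CPM, against 10 in ESW 2 and 8 in ESW 3. The counts were 5, 14 and 26 in CW 1, CW 2 and CW 3, and 9, 24 and 22 in Control 1, Control 2 and Control 3. ESW 1 held the highest value of 11 members and the lowest of none, while ESW 3 held the lowest value of 11. The counts of the 3 groups overlapped.

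**Figure D3:**
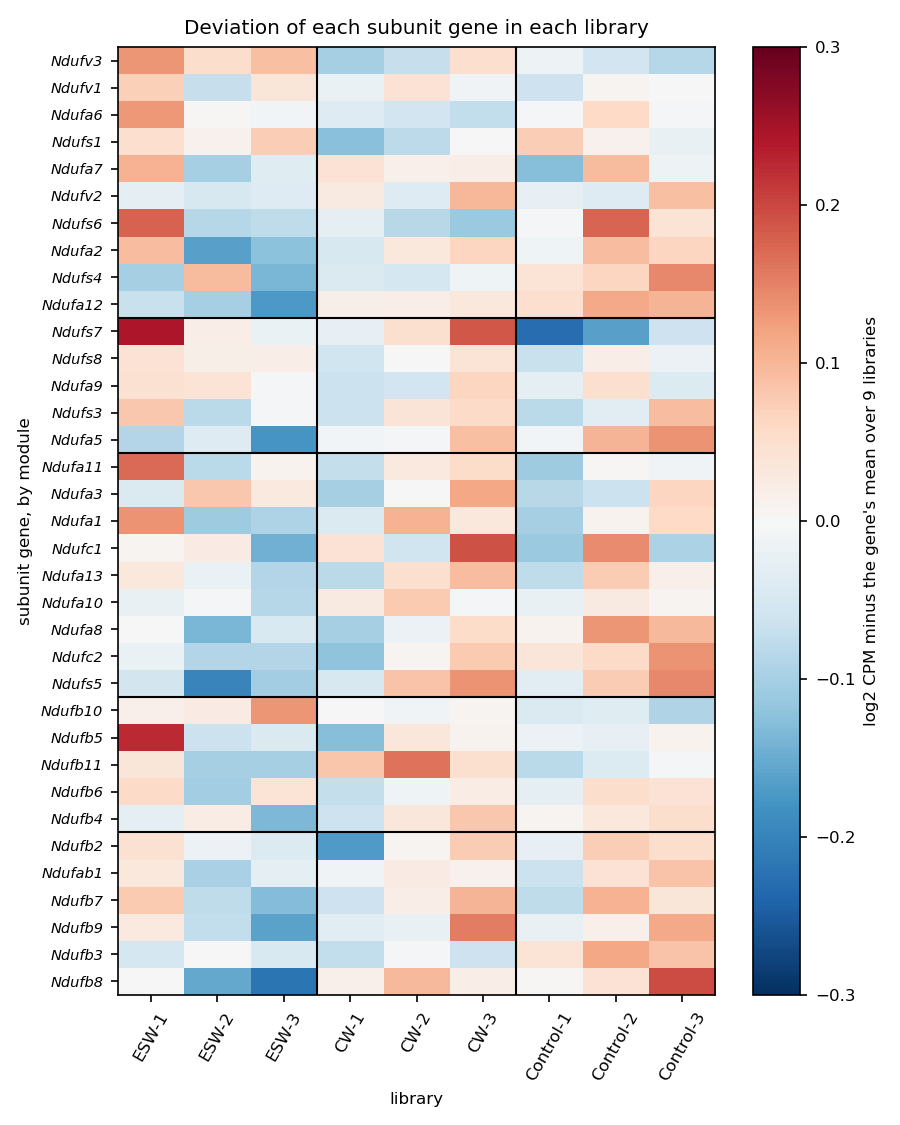
Deviation of each member's log2 CPM from its own mean over the 9 libraries, with members in rows by module and libraries in columns (ESW, CW, Control). Columns ESW 1, CW 3, Control 2 and Control 3 are mostly above the mean, and ESW 2, ESW 3, CW 1 and Control 1 mostly below it.

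Levels between members, compared per length, spanned 13.2-fold. The highest mean was 510.1 TPM for Ndufa11, a membrane subunit of the proximal arm, and the lowest 38.8 TPM for Ndufab1, the mitochondrial acyl carrier protein, and the median member stood at 234 TPM. Ndufa11 measured 551, 502 and 505 TPM in the ESW libraries, 501, 502 and 503 in the CW libraries and 495, 515 and 516 in the Control libraries. Ndufb4, a subunit of the ND4 part, measured 464, 519 and 439.7 TPM in the ESW libraries, 488, 484 and 493 in the CW libraries and 509, 506 and 521 in the Control libraries. Ndufa12 came next with 416, 445 and 415 TPM in the ESW libraries, 476, 488 and 464 in the CW libraries and 482, 499 and 488 in the Control libraries. Ndufa11 and Ndufb4 overlapped in ESW and Control, while in CW every Ndufa11 value was above every Ndufb4 value. Either was the highest member in 8 of the 9 libraries, and Ndufb9 in CW 3. Ndufb4 and Ndufa12 overlapped in ESW and CW but not in Control.

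The lower end was more clearly ordered. Ndufab1 measured 38.8, 35.9 and 38.3 TPM in the ESW libraries, 39.6, 40.1 and 38.5 in the CW libraries and 36.99, 39.5 and 41.1 in the Control libraries, below every other member in every library. Ndufs1 measured 67.3, 64.4 and 68.8 TPM in the ESW libraries, 59.1, 61.9 and 62.6 in the CW libraries and 67.2, 63.6 and 62.1 in the Control libraries. Ndufs4 stood close to it with 65.9, 75.01 and 64.96 TPM in the ESW libraries, 69.4, 70.1 and 68.6 in the CW libraries and 72.7, 72.5 and 76.9 in the Control libraries. Ndufs1 and Ndufs4 overlapped in ESW, whereas in CW and Control every Ndufs4 value was the higher. The coefficient of variation over the 9 libraries was 1.84% to 8.58% across members, highest in Ndufs5, with a median of 5.40%, where 7930 tested genes with a mean of at least 10 TPM had a median of 5.65%.

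**Figure D4:**
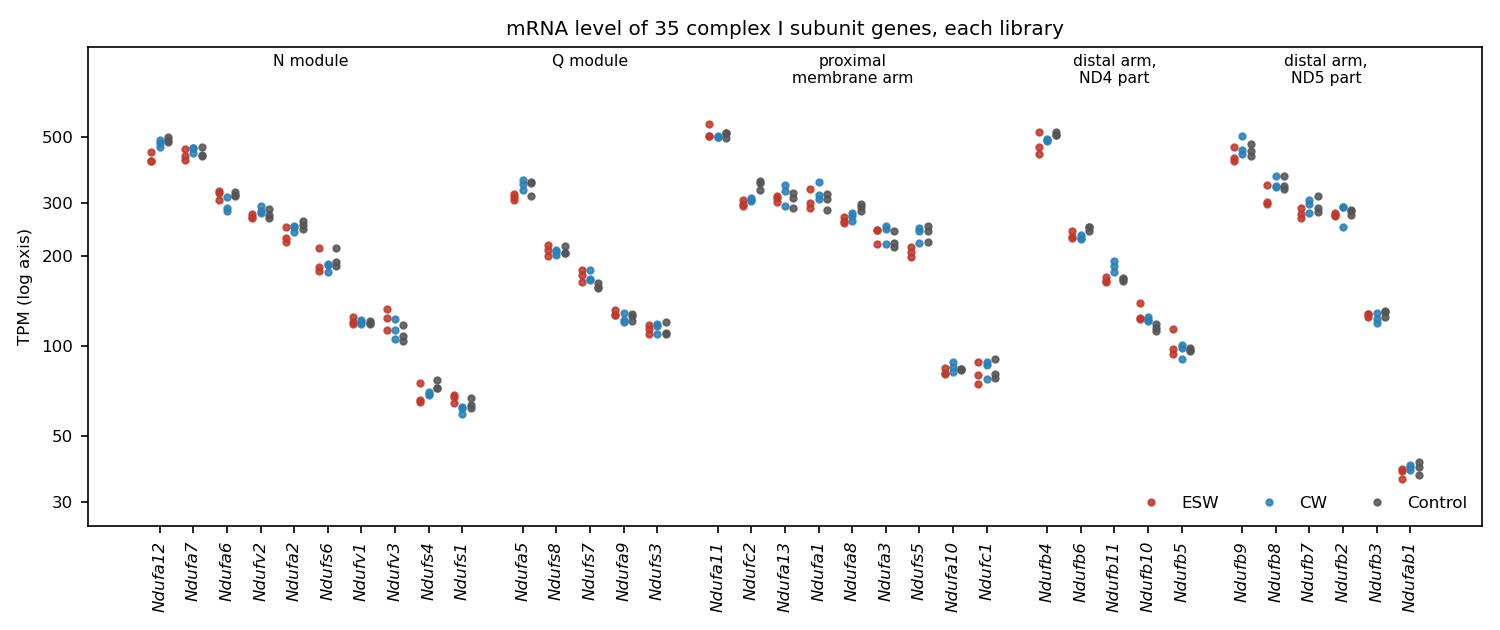
TPM of each of the 35 members in the 9 libraries on a log axis, ordered by module, with ESW, CW and Control in separate colours. Levels run from about 38.8 TPM for Ndufab1 to 510.1 TPM for Ndufa11, and the spread between libraries is small beside the spread between members.

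Of the 35 members, 21 had 1 RefSeq transcript and 14 had several, 59 transcripts in all. In 12 members at least 2 transcripts each held 5% or more of the level, as divided by Salmon's estimate. Ndufv3, in which the known isoforms differ by a long optional exon, had a transcript of 486 bases that held 70.02, 63.05 and 66.8% in ESW, 65.2, 67.6 and 68.5% in CW and 67.3, 65.8 and 65.1% in Control of its TPM. The rest was a transcript of 1536 bases. The short form led in every library, and ESW held both the lowest and the highest share. In Ndufv1 the transcript of 1506 bases held 72.9, 72.4 and 76.7% in ESW, 70.6, 66.6 and 71.9% in CW and 70.4, 72.9 and 68.1% in Control. The ESW shares of Ndufv1 were above the CW shares and overlapped those of Control. One of 636 bases made up 75.2, 79.3 and 78.5% in ESW, 77.3, 79.8 and 72.95% in CW and 73.3, 79.8 and 75.9% in Control of Ndufs5, with overlap between all groups.

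Ndufc1 was divided between a coding transcript of 533 bases with 63.9, 71.6 and 66.1% in ESW, 64.3, 67.2 and 60.5% in CW and 70.8, 65.05 and 57.5% in Control and a non-coding one of 642 bases. In Ndufa10 the transcript of 1990 bases held 54.6, 61.2 and 57.7% in ESW, 30.1, 54.4 and 47.04% in CW and 51.6, 51.5 and 53.4% in Control. Every ESW share was above every CW and every Control share. CW 1 stood apart, and there a transcript of 2107 bases took 21.8% of Ndufa10 in CW 1 and was listed at 0 in the other 8 libraries. The gene sum of Ndufa10 in CW 1 was within the range of the other libraries. In Ndufab1 the transcript of 3147 bases held 88.7, 87.5 and 84.6% in ESW, 85.6, 90.9 and 86.8% in CW and 87.7, 87.02 and 87.8% in Control. For Ndufs7 the transcript of 750 bases held 90.2, 90.98 and 93.02% in ESW, 91.5, 90.7 and 90.2% in CW and 95.04, 93.7 and 91.99% in Control. In Ndufs7 the ESW and CW shares lay below 2 of the 3 Control shares, with 1 ESW share above the lowest Control one. The leading transcripts of Ndufb9, Ndufc2, Ndufs6, Ndufs8 and Ndufv2 held on average 94.1%, 92.3%, 87.2%, 89.7% and 94.7% of their genes.

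The tables also list 9 near copies of members, among them copies of Ndufb3 and Ndufb4. The highest of them summed to 142 reads over the 9 libraries, where the lowest member had 4580, so few reads were assigned to copies.

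Complex I transcripts are short, and over all tested genes the median fold change differed between classes of transcript length. The members' mean transcript length, weighted by TPM, had a median of 670 bases and ran from 347 in Ndufa3 to 3074 in Ndufab1, beside a median of 2765 bases over all tested genes. In ESW against Control the 1190 tested genes under 1000 bases had a median log2 fold change of -0.08, with 9.16% called lower, 1.68% called higher and 69.5% negative. The 27 members under 1000 bases had a median of -0.04 in that comparison. The medians for ESW against CW were -0.07 for the 1190 genes and -0.05 for the 27 members, and for CW against Control -0.01 and -0.002. The part of transcript length in the members' differences was not tested.

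**Figure D5:**
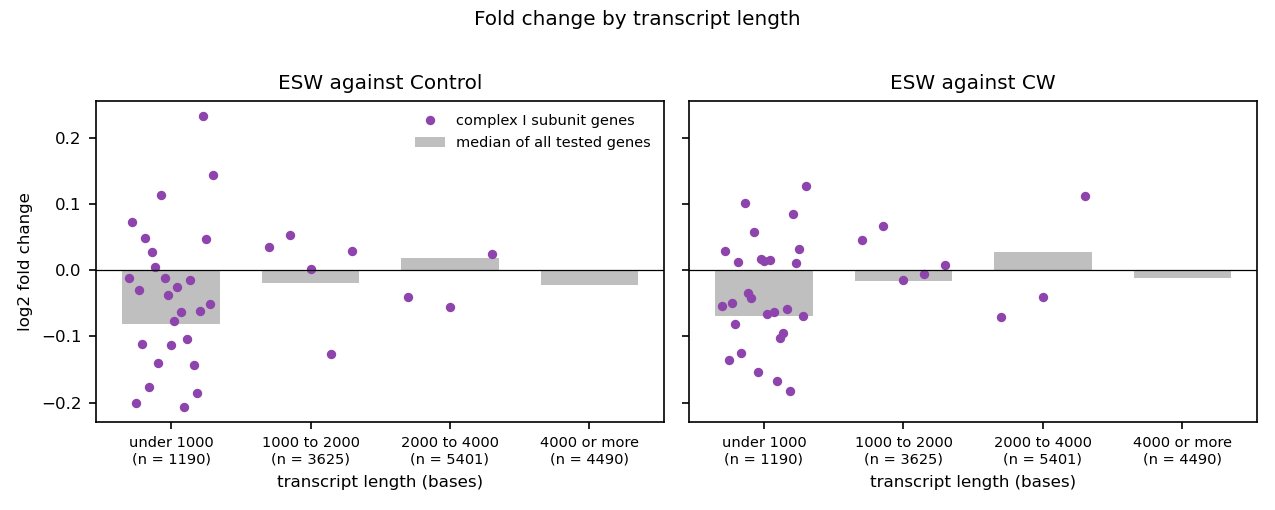
Log2 fold change by TPM-weighted transcript length in ESW against Control and ESW against CW; bars give the median of all tested genes in a length class and points the members in it. The bar is lowest for genes under 1000 bases, where 27 of the members lie.

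Assembly factors build the complex without staying in it. Of a list of 21, 20 were in the tables and all 20 were tested. In ESW against Control 0 rose, 2 fell and 18 were not called, which is 10% of the list called beside 8.04% of all tested genes, with a median log2 fold change of -0.08 beside -0.01. Timmdc1, a factor of the membrane-arm intermediates, measured 24.4, 22.8 and 23.1 CPM in the ESW libraries, 25.2, 27.1 and 28.3 in the CW libraries and 24.5, 30.9 and 29.4 in the Control libraries. All ESW libraries were below all Control and all CW libraries (log2 fold change -0.27, SE 0.07, adjusted p = 0.028, ESW against Control). Without ESW 2, ESW 3, Control 2 or Control 3 that call was lost, with adjusted p between 0.0988 and 0.16. Limma on log2 TPM lost the call as well. Ndufaf4, which acts early on the Q module, measured 14.3, 16.2 and 13.7 CPM in the ESW libraries, 15.5, 15.2 and 15.5 in the CW libraries and 17.6, 17.98 and 16.9 in the Control libraries. ESW lay below Control without overlap (log2 fold change -0.24, SE 0.07, adjusted p = 0.044). Its call was held by 6 of 18 alternatives and ended by leaving out any one library other than ESW 2, with adjusted p between 0.0208 and 0.202 over the 18.

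Against CW, 1 assembly factor fell in ESW and none rose, which is 5% of the list beside 8.14% of all tested genes. This was Ndufaf2, a relative of Ndufa12 that occupies its place during assembly, with 5.85, 5.27 and 5.94 CPM in the ESW libraries, 7.78, 7.29 and 8.66 in the CW libraries and 5.45, 6.07 and 5.97 in the Control libraries. CW was above both other groups without overlap, and ESW overlapped Control. ESW was lower than CW (log2 fold change -0.48, SE 0.11, adjusted p = 0.0099), ESW against Control gave log2 fold change -0.04, SE 0.11, adjusted p = 0.872, and CW against Control gave log2 fold change 0.44, SE 0.10, adjusted p = 0.117. The call against CW was lost without ESW 2 (adjusted p = 0.0528) or CW 3 (adjusted p = 0.0662). It was also lost with transcript length offsets and with limma on log2 TPM. Over the 18 alternatives its adjusted p ran from 0.00189 to 0.0719. In CW against Control 0 assembly factors were called by edgeR's quasi-likelihood test in the fit reported, 2 at an unadjusted p under 0.05. The shares of all tested genes were 0.177% and 9.87%. With no filter on low counts the same test called Ndufaf2 there (adjusted p = 0.0214), where it called 273 of 24470 genes.

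Transcription factors and coactivators known to drive genes of the respiratory chain gave no call. Of 10, 9 were tested and 0 were called in any comparison by edgeR's quasi-likelihood test. Of all tested genes, 8.04% were called in ESW against Control, 8.14% in ESW against CW and 0.177% in CW against Control. At those shares, 0 calls among 9 genes does not set this list apart. The number at an unadjusted p under 0.05 was 0 in ESW against Control, 2 in ESW against CW and 1 in CW against Control. The shares of all tested genes were 22.8%, 23.9% and 9.87%. Ppargc1a, the coactivator best known for raising mitochondrial gene expression, had 13 reads over all 9 libraries and was too low to test. Ppargc1b had 233 reads over the same libraries. Its log2 fold change in ESW against Control had an SE of 0.35, beside a median SE of 0.06 for the tested regulators. Its value therefore says little about whether it changed. In ESW against Control the log2 fold changes were -0.00388 for Nrf1, -0.07 for Gabpa, -0.10 for Gabpb1, -0.05 for Esrra, 0.08 for Ppargc1b, 0.01 for Pprc1, 0.03 for Yy1, -0.13 for Tfam and -0.05 for Sp1, with adjusted p of 0.249 or more. Nrf1, whose letters occur in the promoters above, averaged 16.1 ± 1.41 TPM in ESW, 16.8 ± 0.734 in CW and 16.4 ± 0.356 in Control. Yy1 averaged 22.1 ± 1.07 TPM in ESW, 20.9 ± 0.812 in CW and 21.9 ± 0.483 in Control (SD, n = 3 each).

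Among promoters of the members, 33 of 35 had a window in the RefSeq table, all but Ndufa8 and Ndufb9. The YY1 letters AANATGGCG, searched on both strands, were in 11 of the 33 windows or 33.3%, beside 3.01% of all 33469 windows and 5.62% of the 14351 windows of tested genes. In 10 of the 11 the match was on the gene's strand and in 9 it began after the start. The letters contain ATG, so some may be the start codon. NRF1 letters (GCGCANGCG) were in 9 windows, or 27.3%, beside 5.80% of all windows and 11.1% of those of tested genes. ETS letters (CCGGAAGT) were in 9.09% of members' windows, beside 3.81% of all and 7.05% of tested genes' windows. CCAAT was in 30.3%, beside 37.5% and 38.0%, and the SP1 letters GGGCGG in 45.5%, beside 33.1% and 53.0%. No base of a member's window belonged to matches of 2 motifs. The median GC content was 57.3% in members' windows and 58.7% in those of tested genes.

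The other respiratory complexes give the setting. Of 39 nuclear-encoded subunits of complexes II to V, 1 rose and 7 fell in ESW against Control, beside 4.76% of all tested genes called higher and 3.28% called lower. The 8 calls amount to 20.5% of this list, where 8.04% of all tested genes were called, and its median log2 fold change was -0.06, beside -0.01 for all tested genes. Against CW, 1 rose and 6 fell in ESW, which is 17.95% of the list beside 8.14% of all tested genes. In CW against Control 0 were called by edgeR's quasi-likelihood test, with 4 at an unadjusted p under 0.05, beside 0.177% and 9.87% of all tested genes. Of 75 tested mitochondrial ribosomal proteins, 0 rose and 6 fell in ESW against Control, with a median of -0.06, and 0 rose and 3 fell in ESW against CW. These are 8% and 4% of the list, beside the 8.04% and 8.14% of all tested genes. Whether complex I differed from these lists was not tested.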

How the data were processed

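Total RNA of 9 libraries was sequenced, and the submitters' processing notes name Salmon 1.10.3 and, with no version, DESeq2. Each deposited table gives, per the file headers, the estimated count of reads, the TPM, the length and the effective length of 114122 RefSeq transcripts. The deposited estimated counts are fractional because Salmon divides reads among transcripts that share them. The deposited TPM values were scaled by the authors' Salmon run for effective length and library total. The effective length, per the file headers another kind of value in bases, differs between libraries. The build, the annotation release and the bias options are not given in the sources used here. All 114122 transcripts were matched by accession to gene symbols in a RefSeq table of build GRCr8, and the values were summed by symbol. Coa1 had no gene in that table.

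Gene sums of the estimated counts were rounded and tested with edgeR 4.0.16 (R 4.3.3) by the quasi-likelihood test, with TMM scaling, the filterByExpr filter, 1 mean per group and 6 residual degrees of freedom. Adjusted p-values are Benjamini-Hochberg values over all 14706 tested genes, and a gene was called below 0.05. Alternatives used DESeq2 1.42.0, limma 3.58.1, log2 TPM with a pseudocount of 0.5, other filters, transcript length offsets, a replicate block and each library left out. On simulated counts for the real genes, ESW against Control recovered 74% of 50 genes changed 1.25-fold and 92% of 50 changed by a factor of 2. There 12 of 14286 unchanged genes were called. The simulation drew each gene independently and planted changes in genes of at least 1 CPM. Deviations that genes of a library share were not simulated, so the rates may not hold for the real libraries. Same-numbered libraries did not deviate together, with correlations between -0.118 and 0.04, so the numbers were not used as pairs. Replicate libraries differed by more than sampling noise.

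The members, their modules and the other lists were chosen with earlier results of these data known. Values in every library are given for members called in any comparison, the member with the lowest p over the 3 groups in each module, the 3 highest and 3 lowest by mean TPM, and members with at least 2 transcripts of 5% or more each. Ndufa6, Ndufa8, Ndufb3 and Ndufb10 were described in addition, after their values were seen, because groups of theirs did not overlap. Promoter windows of 300 bases came from RefSeq, build GRCr8. Proteins and the genome sequence were not used here.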

Additional observations from a re-analysis of the deposited data

How the results depend on the processing

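Of the calls on members, Ndufa12 in ESW against Control held under all 18 alternatives. Over all genes, calls in ESW against Control numbered 440 with transcript length offsets and 161 with limma on log2 TPM, against 1183 in the fit reported, and 397 to 1544 with 1 library left out. Members called there numbered 2 with length offsets and 2 with limma on log2 TPM, Ndufa12 and Ndufc2 in both, and 1 with the replicate block, and 1 to 5 with 1 library left out. For ESW against CW, genes called numbered 1 with limma on log2 TPM and 314 to 1486 with 1 library left out. Members called there numbered 2 with no filter on low counts, 4 with a minimum of 1 CPM in 3 libraries, 0 with the replicate block, 4 with only the 2 groups compared, 2 with DESeq2, 0 with limma on log2 TPM and 0 to 4 with 1 library left out. In CW against Control, genes called numbered 273 with no filter, 2 with length offsets, 16 with only the 2 groups, 71 with DESeq2, 0 with limma on log2 TPM and 5 to 51 with 1 library left out, beside 26 in the fit reported. One member, Ndufs7, was called there with no filter. The replicate block gave 971 and 949 called genes for ESW against Control and against CW, and 25 for CW against Control, and the numbers are not known to pair the libraries.

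Some uncalled differences changed sign. For CW over Control, Ndufa5 had a log2 fold change of 0.0153 with length offsets and 0.0235 with limma on log2 TPM, and Ndufb8 had 0.00443 with limma on log2 TPM and -0.0752 to 0.0209 with 1 library left out, positive without Control 3. For ESW over CW, Ndufs7 had -0.00411 at 1 CPM and -0.0727 to 0.0728 with 1 library left out, negative without ESW 1, CW 1 (-0.0321) or CW 2 (-0.00251). Over all members and alternatives, 28, 33 and 50 of 630 values changed sign in the 3 comparisons, and 0 of these were called. The cause was not tested. Members whose groups did not overlap in ESW against Control numbered 10 in CPM and 6 in TPM, a comparison chosen after seeing the data. Members had 376 reads or more per library, and changes smaller than 1.25-fold were not simulated.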
